A study of Mus musculus with 6 samples.

Results

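The genes described are 10 genes of major histocompatibility complex (MHC) class I antigen presentation in preparations of mouse lung alveolar type 2 cells. They were chosen by name from the deposited tables: H2-K1, H2-D1, B2m, Tap1, Tap2, Tapbp, Nlrc5, H2-Q4, H2-Q6 and H2-Q7. They make up 10 of the 13931 genes and 23 of the 24647 transcripts listed in each library. Type 2 cells are the surfactant-producing epithelial cells of the alveolus. The study compared 3 libraries from C57BL/6 mice given PBS repeatedly (the sham libraries) with 3 from C57BL/6 mice given bleomycin repeatedly at 1 U/kg (the mBLM libraries). Bleomycin is a DNA-damaging agent used to injure the lung in models of pulmonary fibrosis. The series' text gives 3 mice for each group. The spacing of the exposures, the interval to harvest, the age of the mice and the way the cells were isolated are not stated in the labels.

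Class I molecules display peptides from inside the cell to CD8 T cells. The proteasome cuts proteins into peptides, the transporter formed by Tap1 and Tap2 carries them into the endoplasmic reticulum, and tapasin (Tapbp) holds the transporter next to empty class I molecules until a peptide is bound. Each molecule consists of a heavy chain and beta-2 microglobulin (B2m). Nlrc5 is a transactivator of the class I genes that does not bind DNA itself and acts through RFX, CREB/ATF and NF-Y factors bound at their promoters. In the healthy lung, type 2 cells are known to express class I and also class II molecules.

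Of the 10 genes, 9 were higher after bleomycin at an adjusted p under 0.05 in limma's moderated test, where 15.2% of all 12326 genes tested were called higher. None of the 10 was called lower or had an unadjusted p under 0.05 in that direction, against 7.34% of all genes called lower. In all 10 the lowest bleomycin library lay above the highest PBS library, as it did in 27.2% of all genes tested. The median difference of the 10 on the log2(FPKM + 1) scale was 1.42, against 0.09 over all genes tested. Of all calls 67.4% were higher, and this share was 51.1% with the libraries scaled to the same median and 49.8% with quantile normalization, where the median of all genes was -0.07 and -0.08 and that of the 10 genes 1.23 and 1.42. FPKM are mapped fragments scaled by transcript length and by library size, so they compare levels per transcript length. The test ran on log2(FPKM + 1). Every log2 difference of a single gene below is bleomycin minus PBS on that scale, with its standard error. Tapbp alone did not pass. Nlrc5 alone passed the filter on low values only through the bleomycin libraries, so its groups had to differ.

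The bleomycin libraries also held more marker RNA of several other cell types and less of the labelled one and of fibroblasts. The summed level of 12 type 2 cell markers was 18184 to 26274 FPKM in the PBS libraries and 3399 to 7748 FPKM in the bleomycin libraries, and all 12 fell. The surfactant gene Sftpc fell by 1.90 ± 0.48 on the log2 scale (adjusted p = 0.0349). All 10 pan-leukocyte markers rose, with sums of 73.5 to 102 FPKM against 1244 to 1789 FPKM. Ptprc, the leukocyte marker CD45, was at 0.0706, 3.81 and 4.85 FPKM with PBS and at 249, 123 and 107 FPKM with bleomycin. All 9 T and NK cell markers found in the tables rose (5.30 to 11.95 against 310 to 534 FPKM), as did all 8 endothelial markers (29.1 to 37.0 against 257 to 489 FPKM), including Pecam1 by 3.28 ± 0.26 (adjusted p = 0.000383). Of these, 4 T and NK cell markers (Cd3d, Cd3e, Lck and Cd4) and 2 endothelial markers (Cldn5 and Emcn) passed the filter on low values only through bleomycin and had to differ. Cldn5 was the single endothelial marker listed at 0 in all 3 PBS libraries. All 6 B and plasma cell markers and all 6 neutrophil markers rose. So did 8 of 9 macrophage and monocyte markers and 2 of 5 ciliated cell markers. Among those that rose, Cxcr2, Mmp9 and Adgre1 passed the filter only through bleomycin and had to differ. In contrast, 3 of 6 fibroblast markers fell (sums of 1747 to 2465 FPKM with PBS against 423 to 1093 FPKM with bleomycin). Of the type 1 cell markers, 1 of 6 fell (537 to 721 against 271 to 490 FPKM). The shares over all genes tested were 15.2% higher and 7.34% lower. In bulk RNA, fewer cells of a type and less RNA per cell cannot be told apart. The part of these cells in the class I values was not tested.

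Promoter sequences of the heavy chain genes and B2m are shown as a description. The part of promoter elements in the changes of these genes was not tested. Promoter windows of 300 bases (250 before to 50 after the start) were found in RefSeq's GRCm38.p6 annotation for 8 of the 10 genes. Stretches of 6 of them follow, each written 5′ to 3′ on the strand of its gene. Those found for Tap1 and Tapbp are not shown. Capitals mark, where present, the palindrome GGGGATTCCCC of the NF-kappa B site, the class I interferon response element AGTTTCACTTCT, the ISRE-like pair of GAAA with any 2 bases between them, the X2-like TGACGC and the Y box CCAAT, each searched on both strands. The coordinates are chr17:34000330-34000463 on the minus strand for H2-K1 and, on the plus strand, chr17:35262918-35263050 for H2-D1, chr17:35379457-35379571 for H2-Q4, chr17:35424672-35424804 for H2-Q6, chr17:35439035-35439148 for H2-Q7 and chr2:122147543-122147643 for B2m.
H2-K1: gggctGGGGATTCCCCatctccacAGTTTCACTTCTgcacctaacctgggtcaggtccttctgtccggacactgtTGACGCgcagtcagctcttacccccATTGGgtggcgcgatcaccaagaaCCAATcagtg
H2-D1: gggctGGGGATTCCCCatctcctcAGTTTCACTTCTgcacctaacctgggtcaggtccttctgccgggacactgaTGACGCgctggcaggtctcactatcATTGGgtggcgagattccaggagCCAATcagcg
H2-Q4: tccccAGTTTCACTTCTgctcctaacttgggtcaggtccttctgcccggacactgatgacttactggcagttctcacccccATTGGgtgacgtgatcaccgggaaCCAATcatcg
H2-Q6: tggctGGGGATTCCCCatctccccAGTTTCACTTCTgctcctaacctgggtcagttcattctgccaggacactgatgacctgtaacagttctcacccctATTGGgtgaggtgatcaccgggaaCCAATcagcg
H2-Q7: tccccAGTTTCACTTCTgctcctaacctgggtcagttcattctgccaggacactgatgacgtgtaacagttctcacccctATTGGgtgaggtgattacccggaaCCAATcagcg
B2m: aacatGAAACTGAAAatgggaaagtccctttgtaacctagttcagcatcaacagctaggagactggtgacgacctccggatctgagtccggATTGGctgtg

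The class I interferon response element was found in 5 of the 8 promoters (H2-K1, H2-D1, H2-Q4, H2-Q6 and H2-Q7) and in 0.0335% of the 32851 mouse promoter windows of the same length. The palindrome was found in H2-K1, H2-D1 and H2-Q6 and in 0.0304% of all windows. Both of these motifs are stretches of the H2-K1 promoter, added after the promoters had been seen. The H2-K1 match was therefore certain, and the shares over all windows are no test of the other promoters. The Y box was in all 8 promoters, against 37.4% of all windows. TGACGC was in H2-K1, H2-D1 and H2-Q4, the last outside the stretch shown, against 7.40% of all windows. The ISRE-like pair was in B2m, against 3.44% of all windows. A match is a description of the letters in the window and says nothing of binding.

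H2-K1 and H2-D1 encode the classical heavy chains, which present peptides to most CD8 T cells. H2-K1 (mm10, chromosome 17, 33996017 to 34000333, minus strand) was at 244, 226 and 184 FPKM in PBS libraries 1 to 3 and at 601, 523 and 472 FPKM in bleomycin libraries 1 to 3. The ratio of the group means was 2.44, and the log2 difference was 1.29 ± 0.20 (adjusted p = 0.00539). H2-D1 (chromosome 17, 35262730 to 35267499, plus strand) was at 295, 291 and 249 FPKM with PBS. With bleomycin it was at 724, 687 and 787 FPKM, 2.63 times the PBS mean, with a log2 difference of 1.40 ± 0.18 (adjusted p = 0.00259). In both genes every bleomycin library lay well above every PBS library. Both were already among the more abundant RNAs: among the 12326 genes H2-D1 moved from rank 108 in PBS to rank 15, and H2-K1 from rank 160 to rank 34.

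B2m encodes the light chain shared by all class I molecules. B2m (chromosome 2, 122147686 to 122153083, plus strand) was at 286, 222 and 238 FPKM with PBS and at 612, 558 and 1174 FPKM with bleomycin. Bleomycin library 3 stood well above the other bleomycin libraries. The log2 difference was 1.57 ± 0.32 (adjusted p = 0.0160). It was 1.24 ± 0.19 without bleomycin library 3 (adjusted p = 0.0117), and the call was lost without PBS library 2 (adjusted p = 0.0573) or PBS library 3 (adjusted p = 0.0556).

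**Figure D1:**
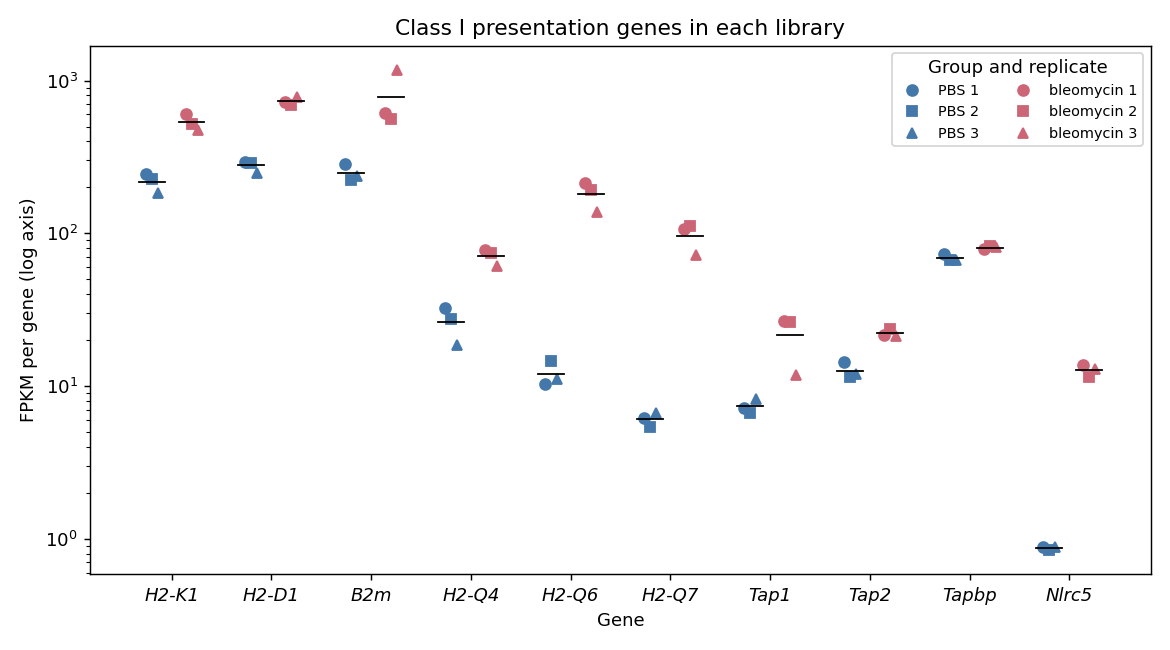
FPKM of each class I gene in the 3 PBS libraries (blue) and the 3 bleomycin libraries (red) on a log axis, with the marker shape giving the replicate and a line at the group mean. Every red point lies above every blue point of its gene; B2m in bleomycin library 3 (1174 FPKM) and Tap1 in bleomycin library 3 (11.8 FPKM) lie away from the other bleomycin libraries.

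H2-Q4, H2-Q6 and H2-Q7 belong to the non-classical (class Ib) heavy chains of the Q region. H2-Q6 and H2-Q7 encode forms of the Qa-2 antigen, part of which is anchored in the membrane by a lipid. H2-Q4 (chromosome 17, 35379617 to 35384674, plus strand) was at 32.4, 27.5 and 18.5 FPKM with PBS and at 78.1, 74.9 and 61.2 FPKM with bleomycin. Its log2 difference was 1.44 ± 0.23 (adjusted p = 0.00688), close in size to those of H2-K1 and H2-D1.

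H2-Q6 (chromosome 17, 35424850 to 35430055, plus strand) and H2-Q7 (chromosome 17, 35439155 to 35443773, plus strand) moved by more. H2-Q6 was at 10.3, 14.6 and 11.1 FPKM with PBS and at 214, 192 and 138 FPKM with bleomycin, a ratio of means of 15.1. Its log2 difference was 3.80 ± 0.22 (adjusted p = 0.000161), and 0.771% of the genes tested had a larger rise. H2-Q7 was at 6.15, 5.37 and 6.69 FPKM with PBS and at 107, 111 and 71.8 FPKM with bleomycin, a ratio of means of 15.9. Its log2 difference was 3.77 ± 0.21 (adjusted p = 0.000148). Both genes were lowest in bleomycin library 3 among the bleomycin libraries, and even there stood far above all PBS libraries.

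The class I heavy chain genes are alike in sequence, and the start of exon 3, which encodes part of the peptide-binding groove, is shown for the 5 heavy chains to let them be compared. The first 90 of its 276 bases are given 5′ to 3′ from the GENCODE M21 transcripts (GRCm38), and capitals mark bases unlike H2-K1. The stretches lie at chr17:33999457-33999546 on the minus strand for H2-K1 and, on the plus strand, at chr17:35263839-35263928 for H2-D1, chr17:35380361-35380450 for H2-Q4, chr17:35425571-35425660 for H2-Q6 and chr17:35439909-35439998 for H2-Q7.
H2-K1: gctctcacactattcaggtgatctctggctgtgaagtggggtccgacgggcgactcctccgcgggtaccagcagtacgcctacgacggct
H2-D1: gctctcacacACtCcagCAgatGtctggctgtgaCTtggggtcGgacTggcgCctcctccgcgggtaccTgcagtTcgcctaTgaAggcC
H2-Q4: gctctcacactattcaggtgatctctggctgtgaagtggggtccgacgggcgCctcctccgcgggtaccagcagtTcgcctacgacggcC
H2-Q6: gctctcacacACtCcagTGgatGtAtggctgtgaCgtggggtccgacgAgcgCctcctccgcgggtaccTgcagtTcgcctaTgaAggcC
H2-Q7: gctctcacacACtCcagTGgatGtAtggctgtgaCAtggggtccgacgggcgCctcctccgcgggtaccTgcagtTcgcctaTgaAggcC

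Over this stretch H2-Q4 differed from H2-K1 at 3 bases, H2-D1 at 16, and H2-Q6 and H2-Q7 at 15 each. Over the whole exon, H2-Q6 and H2-Q7 differed from each other at 14 of 276 bases, and H2-Q4 differed from H2-K1 at 24 and from H2-Q6 at 29. Of all 50-base windows of the listed transcripts, 34.9% in H2-Q7, 32.0% in H2-Q6, 24.3% in H2-Q4, 13.9% in H2-D1 and 7.63% in H2-K1 were also found in a transcript of another gene. Of the H2-Q6 windows 13.9% occurred in H2-Q7 and 12.3% in H2-Q4. Of the H2-Q7 windows 17.02% occurred in H2-Q6 and 17.4% in H2-Q5. Some matches were to genes outside class I, such as Olfr1238 (4.07% of the H2-Q4 windows) and Efr3a (4.76% of the H2-Q6 windows). B2m and Nlrc5 shared no such window, Tapbp shared 2.00%, and Tap1 and Tap2 shared under 1% each (0.834% and 0.727%). The split of reads among the Q genes is therefore uncertain. The sum of H2-Q6 and H2-Q7 went from 18.1 ± 1.76 FPKM (SD, n = 3) to 278 ± 59.8 FPKM (SD, n = 3).

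Tap1 and Tap2 encode the chains of the peptide transporter. Tap1 (chromosome 17, 34187553 to 34197225, plus strand) was at 7.20, 6.66 and 8.28 FPKM with PBS and at 26.7, 26.4 and 11.8 FPKM with bleomycin. Bleomycin library 3 lay much nearer to the PBS libraries than the other bleomycin libraries did. The log2 difference was 1.35 ± 0.32 (adjusted p = 0.0280). It was 1.72 ± 0.17 without bleomycin library 3 (adjusted p = 0.00278), and the call was lost when any of the other 5 libraries was left out (adjusted p from 0.0656 without PBS library 3 to 0.0870 without bleomycin library 2).

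Tap2 (chromosome 17, 34203527 to 34216321, plus strand) was at 14.5, 11.5 and 11.96 FPKM with PBS and at 21.7, 23.5 and 21.4 FPKM with bleomycin. Its log2 difference of 0.77 ± 0.15 (adjusted p = 0.0145) was smaller than that of Tap1, and the bleomycin libraries lay close together. The call was lost without PBS library 3 (adjusted p = 0.0520) or bleomycin library 2 (adjusted p = 0.0573). Tap1 was at 0.498, 0.581 and 0.692 of the Tap2 level with PBS and at 1.23, 1.12 and 0.552 with bleomycin. The Tap1 to Tap2 ratio overlapped between the groups through bleomycin library 3 (two-sided exact permutation p = 0.3).

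Tapbp encodes tapasin, the bridge between the transporter and class I. Tapbp (chromosome 17, 33919332 to 33929288, plus strand) was at 72.7, 66.8 and 67.3 FPKM with PBS and at 78.4, 82.3 and 81.3 FPKM with bleomycin. The groups did not overlap, but the difference of 0.22 ± 0.13 did not pass (adjusted p = 0.271). With the libraries scaled to the same median it was 0.03.

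Nlrc5 (chromosome 8, 94472763 to 94527272, plus strand) was at 0.887, 0.841 and 0.879 FPKM with PBS and at 13.8, 11.5 and 12.9 FPKM with bleomycin. All 3 PBS libraries lay just under 1 FPKM, and the bleomycin libraries were tightly grouped. The ratio of the group means was 14.6, and the log2 difference was 2.87 ± 0.16 (adjusted p = 0.000146). The gene moved from rank 11590 to rank 4306 by level. The size of the log2 difference depended on the constant added before the logarithm, at 3.72 with 0.1 and 1.59 with 5.

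**Figure D2:**
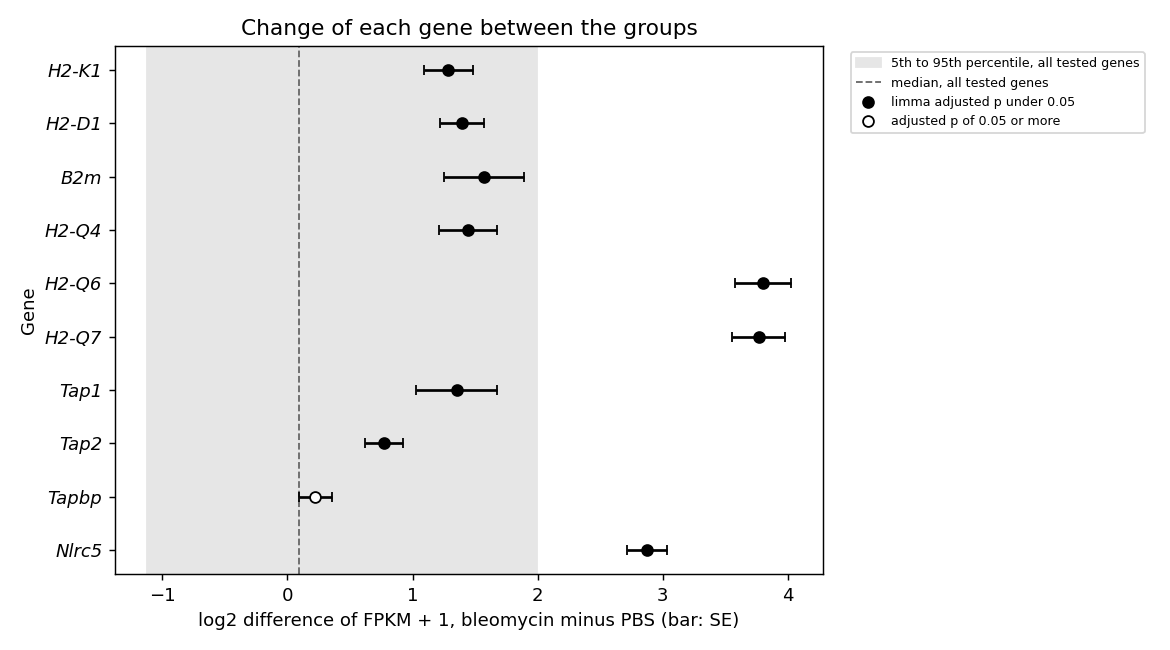
Log2 difference of FPKM + 1, bleomycin minus PBS, for each class I gene, with the standard error as the bar and filled points for an adjusted p under 0.05. The dashed line is the median of all genes tested (0.09) and the grey band runs from their 5th to their 95th percentile (-1.12 to 1.99); H2-Q6, H2-Q7 and Nlrc5 lie beyond the band.

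The RNA of Nlrc5 was listed as a pair of transcripts. The long form Nlrc5-003, with 49 exons and 6945 bases, was at 0.274, 0.621 and 0.540 FPKM with PBS and at 12.7, 10.8 and 11.9 FPKM with bleomycin. The short form Nlrc5-201, with 3 exons at the end of the gene, was at 0.613, 0.220 and 0.339 FPKM and at 1.05, 0.770 and 0.961 FPKM. The long form thus held most of the gene's FPKM with bleomycin, and between 30.9% and 73.9% of it with PBS, where both forms were near 0.

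For H2-K1 the split between transcripts varied among libraries of the same group. H2-K1-001 was at 91.8, 184 and 75.0 FPKM with PBS and at 503, 185 and 176 FPKM with bleomycin. H2-K1-003 was at 134, 27.7 and 95.5 FPKM with PBS and at 53.7, 277 and 234 FPKM with bleomycin, high where H2-K1-001 was low. When the transcript with the highest mean stood for its gene, the H2-K1 difference was 1.22 ± 0.51 and did not pass (adjusted p = 0.153).

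Tap1 showed a change of listed form in bleomycin library 3. Tap1-001, with 11 exons, was at 7.20, 6.55 and 8.28 FPKM with PBS and at 24.8, 24.1 and 3.42 FPKM with bleomycin. Tap1-005, with 12 exons, had the value 0 in the PBS libraries and 1.28, 1.59 and 7.14 FPKM with bleomycin. By the transcript with the highest mean, the Tap1 difference was 0.77 ± 0.68 (adjusted p = 0.479). H2-Q7-001 was at 2.55, 2.32 and 2.37 FPKM with PBS and at 77.5, 83.4 and 54.2 FPKM with bleomycin, a larger proportional change than that of H2-Q7-203 (3.11 ± 0.85 against 18.8 ± 4.63 FPKM, SD, n = 3).

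**Figure D3:**
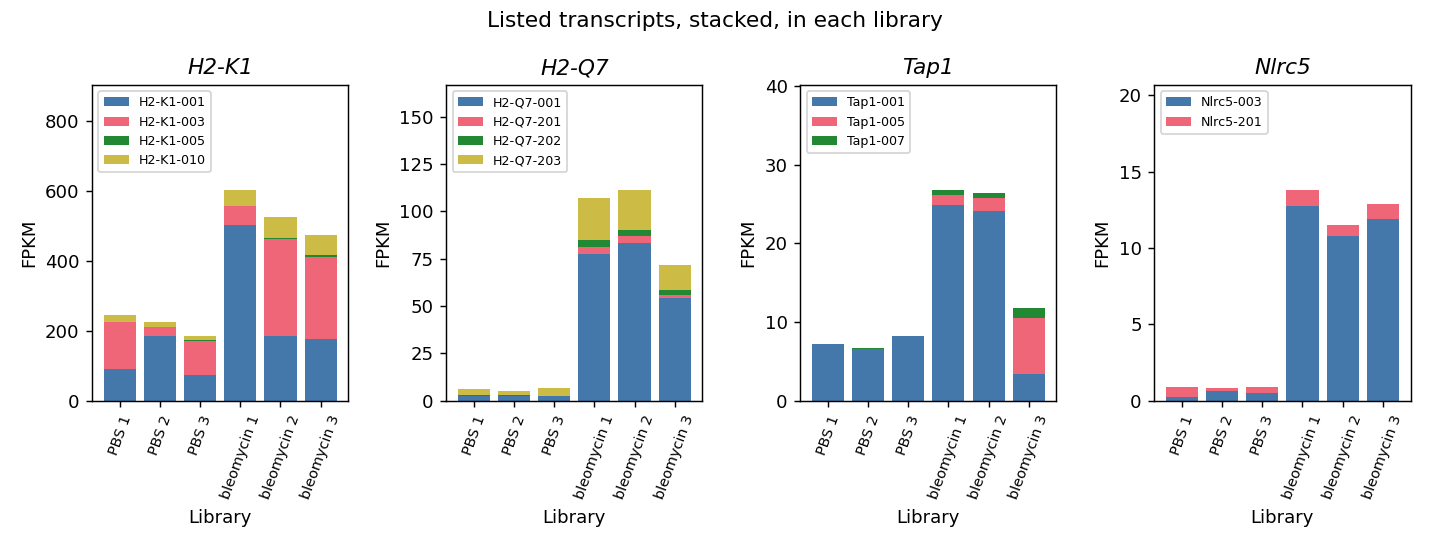
FPKM of the listed transcripts of H2-K1, H2-Q7, Tap1 and Nlrc5, stacked within each of the 6 libraries. The H2-K1 bars are split differently from library to library, and the Tap1 bar of bleomycin library 3 is mostly Tap1-005 (7.14 FPKM) where the other bleomycin libraries are mostly Tap1-001.

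Ratios within a library compare the genes with each other free of library scaling. They were taken on FPKM with nothing added before the logarithm. Relative to H2-K1, the log2 ratio with bleomycin minus that with PBS was 2.58 for Nlrc5, 2.62 for H2-Q6 and 2.68 for H2-Q7, and the groups did not overlap. It was -0.47 for Tap2 and -1.06 for Tapbp, also without overlap. For these 5 of the 10 ratios the two-sided exact permutation p was 0.1, the smallest that 3 against 3 allows, and 0.2 adjusted over the 10 ratios. Nlrc5 was below 1 FPKM in all PBS libraries and passed the filter only through bleomycin, so its level had to differ between the groups. On the log2(FPKM + 1) scale the difference was 2.87 for Nlrc5, 3.80 for H2-Q6, 3.77 for H2-Q7 and 1.29 for H2-K1. The ratios of H2-D1 (0.11), B2m (0.29), Tap1 (0.17) and H2-Q4 (0.19) to H2-K1 overlapped between the groups, with exact permutation p from 0.3 to 0.9. With B2m in place of H2-K1 as the reference, the differences for H2-D1 (-0.18), Tap1 (-0.11) and H2-Q4 (-0.10) had the opposite sign.

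The summed level of the 5 heavy chain genes, a sum chosen after the values were seen, was 588, 564 and 469 FPKM with PBS and 1725, 1589 and 1530 FPKM with bleomycin. The Q genes held 8.30%, 8.42% and 7.73% of that sum with PBS and 23.2%, 23.8% and 17.7% with bleomycin. The sum over B2m was 2.06, 2.54 and 1.97 with PBS. With bleomycin it was 2.82, 2.85 and 1.30, so that the groups overlapped (exact permutation p = 0.8), with bleomycin library 3 the lowest of all 6.

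**Figure D4:**
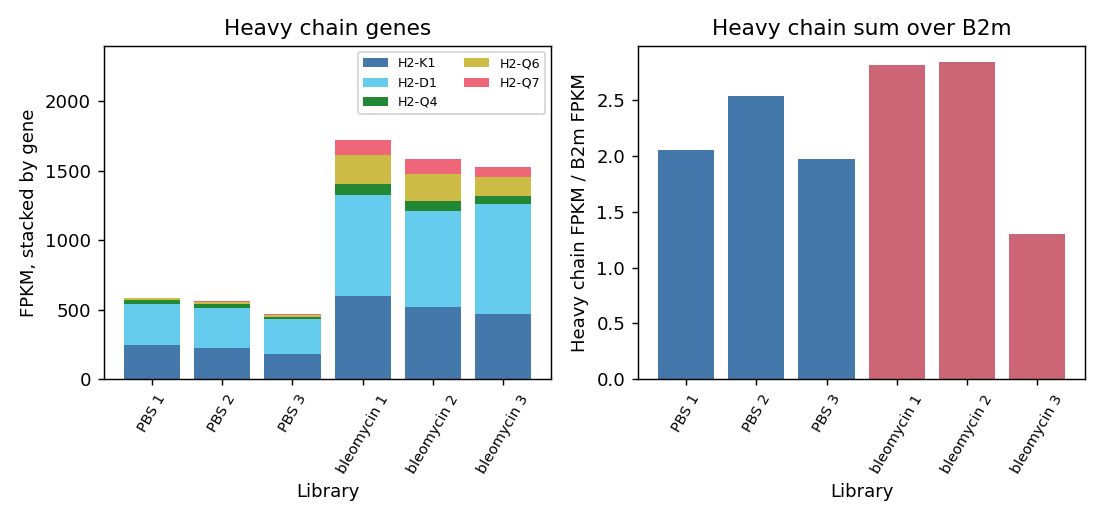
Left, FPKM of the 5 heavy chain genes stacked in each library; right, that sum divided by the FPKM of B2m. The sums lie at 469 to 588 FPKM with PBS and 1530 to 1725 FPKM with bleomycin, while the ratio to B2m overlaps, from 1.30 to 2.85 with bleomycin.

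The other genes of the pathway were taken in 9 lists. Of the 82 genes tested, 42 rose and 1 fell, where 15.2% of all genes tested were called higher and 7.34% lower. Among the 42, 7 receptors, 2 heavy chains, 2 interferon gamma induced genes, Ifng and H2-Oa passed the filter only through bleomycin. These had to differ between the groups. Over all 12326 genes tested, 588 passed only through bleomycin. Among other class I heavy chains and class I-like genes, 6 of 11 tested rose, with a list median of 1.01 (13 of the 18 genes named were found in the tables). H2-M3, which presents formylated peptides, went from 5.19 ± 0.13 to 17.01 ± 0.76 FPKM (SD, n = 3; log2 difference 1.54 ± 0.14, adjusted p = 0.000645). H2-T23, the heavy chain of Qa-1, went from 57.4 ± 1.66 to 117 ± 5.30 FPKM (1.01 ± 0.13, adjusted p = 0.00300). H2-Q10 and H2-T24 also rose, by 2.50 ± 0.23 and 1.76 ± 0.17 (adjusted p = 0.000731 and 0.000866). Both were below 1 FPKM in all PBS libraries and passed the filter only through bleomycin.

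The gene of this list that fell was Fcgrt, the heavy chain of the neonatal Fc receptor, which also pairs with B2m; it is named after its value was seen. Fcgrt went from 63.5 ± 15.6 to 31.0 ± 5.48 FPKM (SD, n = 3), a log2 difference of -0.996 ± 0.23 (adjusted p = 0.0251). The call was lost without PBS library 1, PBS library 3 or bleomycin library 1 (adjusted p = 0.0586, 0.0658 and 0.0725).

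In the list of peptide loading and trimming, 2 of 13 genes rose, a share near the 15.2% of all genes tested, and the median was 0.03. Those called were Tpp2, a cytosolic peptidase, by 0.68 ± 0.18 (adjusted p = 0.0388) and Tapbpl, a peptide editor related to tapasin, by 0.77 ± 0.21 (adjusted p = 0.0431). Tpp2 lost its call when any library other than bleomycin 3 was left out (adjusted p from 0.0575 to 0.112), and Tapbpl when any other than PBS 1 was left out (0.0819 to 0.121). With the libraries scaled to the same median neither passed (adjusted p = 0.114 and 0.0801). The trimming aminopeptidases Lnpep (1.02 ± 0.31, adjusted p = 0.0568) and Erap1 (0.47 ± 0.17, adjusted p = 0.0979) did not pass. The Lnpep difference passed without PBS library 3 (adjusted p = 0.0402).

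The immunoproteasome replaces the catalytic subunits of the proteasome and is known to favour peptides that fit class I. Its 3 catalytic subunits rose, and the activator subunits did not pass. This gave 3 of 5 and a median of 0.95, where 15.2% of all genes tested were called higher. Psmb9 went from 6.08 ± 1.68 to 26.2 ± 6.68 FPKM (SD, n = 3; 1.93 ± 0.26, adjusted p = 0.00326) and Psmb8 from 15.9 ± 1.30 to 56.8 ± 20.4 FPKM (1.72 ± 0.26, adjusted p = 0.00522). Psmb10 went from 22.9 ± 2.86 to 45.3 ± 6.67 FPKM (0.95 ± 0.18, adjusted p = 0.0115). Psme1 had a difference of 0.40 ± 0.17 (adjusted p = 0.148). None of the 3 constitutive catalytic subunits was called, at 0.53 ± 0.39 for Psmb5, 0.18 ± 0.17 for Psmb6 and -0.01 ± 0.22 for Psmb7 (adjusted p = 0.374, 0.476 and 0.980), and none had an unadjusted limma p under 0.05.

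None of the 8 genes for the DNA-binding partners of Nlrc5 was called by limma, and their median was 0.17. Of all genes tested 22.5% were called in either direction, so a count of 0 among 8 genes does not set the partners apart. The smallest adjusted p belonged to Atf1 (0.76 ± 0.30, adjusted p = 0.119), Nfya (0.40 ± 0.16, adjusted p = 0.124), Creb1 (0.37 ± 0.21, adjusted p = 0.256) and Rfx5 (-0.37 ± 0.28, adjusted p = 0.387). Before adjustment, 2 of the 8, Atf1 and Nfya, were under 0.05. Atf1 passed without bleomycin library 1 (1.10, adjusted p = 0.0136).

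Interferon gamma is the classical inducer of class I genes. Of its signalling genes 6 of 12 rose, with a median of 0.81, where 15.2% of all genes tested were called higher. The RNA of Ifng itself was listed at 0, 0.428 and 0.129 FPKM with PBS and at 10.5, 13.2 and 8.64 FPKM with bleomycin, a log2 difference of 3.31 ± 0.23 (adjusted p = 0.000245), and it passed the filter only through bleomycin. The kinase Jak1 rose by 1.21 ± 0.18 (adjusted p = 0.00502). The kinase Jak2 rose by 0.70 ± 0.17 (adjusted p = 0.0277). The Jak2 call did not hold when any library other than bleomycin 3 was left out (adjusted p from 0.0622 to 0.0816) or with the libraries scaled to the same median (adjusted p = 0.0786). Irf1, a factor that binds interferon response elements, had a difference of 0.93 ± 0.27 that did not pass (adjusted p = 0.0538). The count of 6 fell to 2 with the libraries scaled to the same median, to 2 without PBS library 1, 2 or 3 or bleomycin library 1, and to 3 without bleomycin library 2. At 2 of 12 the share is near the 15.2% of all genes called higher in the main fit. The fits that gave 2 called fewer of the 12326 genes higher, 1325 to 1475 against 1871 in the main fit.

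Of the genes known to be induced by interferon gamma, 9 of 12 tested rose, where 15.2% of all genes tested were called higher. Their median was 1.14. The chemokine gene Cxcl10 went from 2.85 ± 1.25 to 9.83 ± 1.46 FPKM (SD, n = 3; 1.53 ± 0.27, adjusted p = 0.00951). Among the guanylate-binding proteins, which act against intracellular microbes, Gbp9 rose by 1.47 ± 0.23, Gbp7 by 1.21 ± 0.22 and Gbp8 by 1.07 ± 0.22 (adjusted p = 0.00569, 0.0104 and 0.0158). Gbp8 and Gbp9 passed the filter only through bleomycin, and the Gbp8 call was lost without PBS library 2 or 3 (adjusted p = 0.0569 and 0.0599) and with quantile normalization (adjusted p = 0.107). Sharing of sequence among the guanylate-binding protein genes was not tested. The count of 9 fell to 5 with quantile normalization or without PBS library 1 and to 4 without bleomycin library 1 or 2.

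In the list of receptors for class I or class I-like molecules and of related inhibitory receptors, 8 of 8 genes rose. Their median was 3.20, and 15.2% of all genes tested were called higher. Of the 8 genes, 7 were below 1 FPKM in every PBS library and had to differ once they passed the filter. Cd8a, a chain of the CD8 coreceptor, went from 0.0692 ± 0.0692 to 7.54 ± 0.58 FPKM (SD, n = 3; 3.00 ± 0.16, adjusted p = 0.000136), and Cd8b1, its partner chain, rose by 3.88 ± 0.29 (adjusted p = 0.000319). The NK receptor chain Klrd1 rose by 4.09 ± 0.34 and Lilrb4a, an inhibitory receptor of myeloid cells not known as a class I receptor, by 4.72 ± 0.31 (adjusted p = 0.000443 and 0.000215). These receptors are genes of leukocytes, and they rose together with the leukocyte markers given above.

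In class II presentation, 8 of 10 genes rose, where 15.2% of all genes tested were called higher. The list median was 1.46, close to the median of the 10 class I genes. Ciita, the class II transactivator related to Nlrc5, went from 2.43 ± 0.87 to 7.93 ± 1.24 FPKM (SD, n = 3; 1.40 ± 0.23, adjusted p = 0.00749), a smaller log2 difference than that of Nlrc5, which was not tested against it. H2-Eb1, a class II beta chain, went from 106 ± 18.8 to 422 ± 104 FPKM (1.97 ± 0.25, adjusted p = 0.00237). The protease gene Ctss rose by 4.82 ± 0.39, and H2-Ob and H2-Oa, which modulate class II peptide exchange, by 4.07 ± 0.27 and 3.28 ± 0.33 (adjusted p = 0.000421, 0.000229 and 0.000935). H2-Oa passed the filter only through bleomycin.

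**Figure D5:**
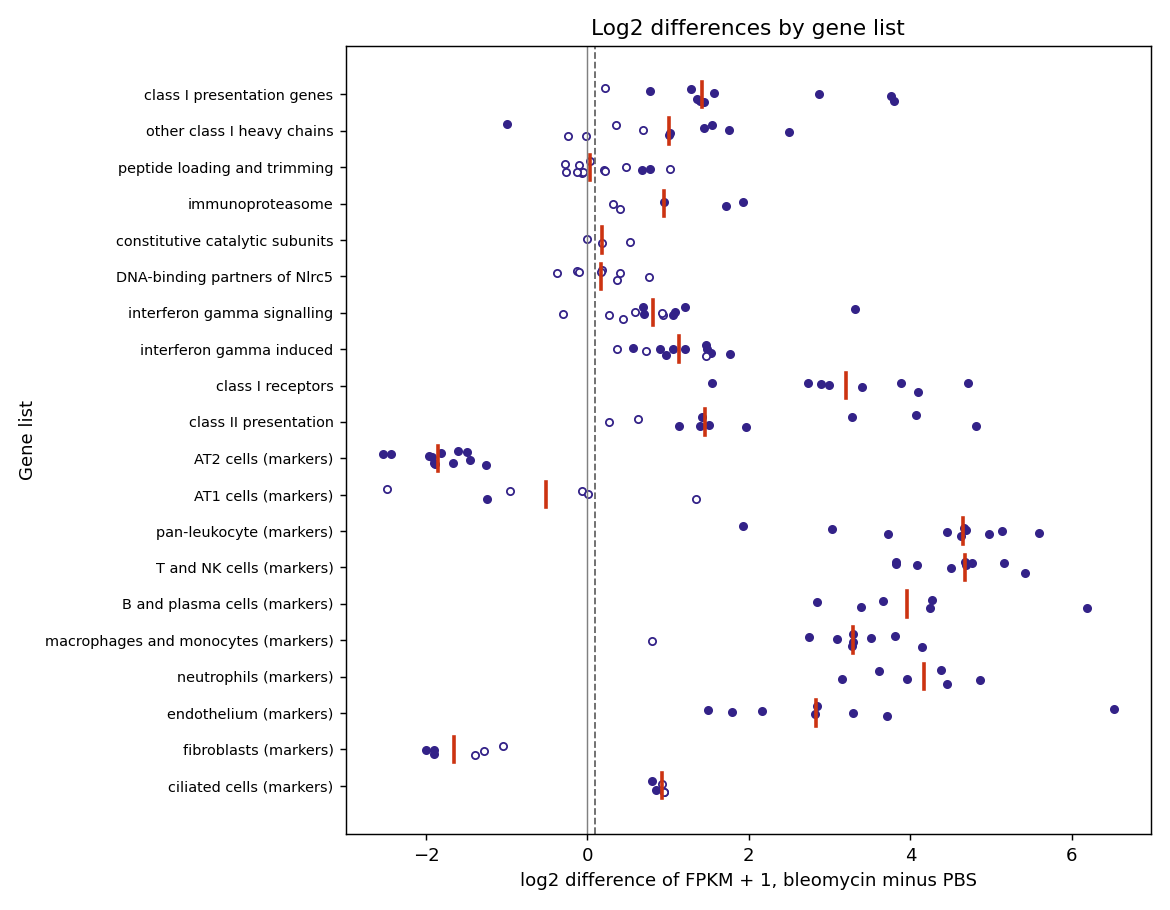
Log2 difference of FPKM + 1, bleomycin minus PBS, for each tested gene of the class I genes, the other pathway lists and the cell type marker lists, with filled points for an adjusted p under 0.05, a red line at each list's median, a solid line at 0 and a dashed line at the median of all genes tested (0.09). The receptors (listed as class I receptors, median 3.20) lie in the range of the leukocyte markers, while peptide loading (0.03), constitutive proteasome subunits (0.18) and DNA-binding partners of Nlrc5 (0.17) lie around the median of all genes.

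Among 7981 genes compared by Pearson's r of log2(FPKM + 1) over the 6 libraries, the 5 most like Nlrc5 included Lpxn (r = 0.9997), H2-M3 (0.9997) and Itgam (0.9995). Itgam encodes the myeloid integrin chain CD11b and was at 0.256, 0.195 and 0.341 FPKM with PBS and at 22.8, 16.8 and 22.2 FPKM with bleomycin. The 5 most like B2m were Ncoa4 (r = 0.994), Fth1 (0.993), Tcirg1 (0.991), Ctsk (0.991) and Capg (0.990). All 5 of these, like B2m, were highest in bleomycin library 3. They were picked for their likeness to B2m over the same libraries, so this shared peak is no separate result. Fth1, the ferritin heavy chain, was at 723, 626 and 610 FPKM with PBS and at 1440, 1503 and 2378 FPKM with bleomycin. The 6 libraries form 2 groups of 3, so these values describe a shared difference between the groups and carry no test.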

How the data were processed

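RNA from type 2 cell preparations was extracted with TRIzol and made into stranded libraries with a KAPA kit, per the labels' protocols. HISAT2, StringTie, FastQC 0.10.1 and the mm10 build are named in the submitters' processing notes. The authors deposited 1 table of FPKM per transcript for each of the 6 libraries, per the file headers. FPKM summed to 253146 to 300697 per library. At most 31.25% of the 400 lowest values lay within 0.05 of a whole multiple of a common step, so read depth is unknown and no count test was possible.

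FPKM were summed by gene ID. Genes at 1 FPKM or more in at least 3 of 6 libraries (12326) were tested with limma 3.58.1 in R 4.3.3 (trended moderated variance) on log2(FPKM + 1), with Benjamini-Hochberg adjustment over all of them and a two-sided threshold of 0.05. The fit was tested on simulated data. A p that misses the threshold does not show that a gene did not change. Ratios were tested with exact permutation tests. Groups came from the sample titles. The labels do not say that each library came from a separate mouse. The limma p-values set a group difference against a variance between these libraries that is moderated over genes. That variance may not reflect the spread between mice.

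The class I genes and all lists were chosen with earlier results of these data known. Named were all 10 class I genes, from each list up to 4 genes with its lowest adjusted p, a few fixed genes (Psmb8, Psmb9, Psmb10, Irf1, Ifng, Ciita, Cd8a, Ptprc, Pecam1, Sftpc), and the 5 genes most like Nlrc5 and B2m among those with a mean of 5 FPKM or more, leaving out numbered gene models. A few genes that this rule names are not reported here. Promoters were from RefSeq (GRCm38.p6) and exons from GENCODE M21 (GRCm38). Alternatives were other pseudocounts, filters and scalings, 1 transcript per gene, a replicate block and leaving out each library.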

Additional observations from a re-analysis of the deposited data

How the results depend on the processing

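Of 140 log2 differences of the 10 class I genes under the 14 alternatives, all 140 kept their sign, 127 their side of the threshold, and 13 were no longer past it. H2-D1, H2-Q4, H2-Q6, H2-Q7 and Nlrc5 kept their calls in all 14. The count of class I genes that rose was 7 with the highest transcript per gene and 6 to 9 when a library was left out (6 without PBS library 3). In leaving out a library, the filter on low values was kept on all 6 libraries, a choice made after a first output was seen. The cause of the losses was not tested.

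Over all genes, 905 were lower; this became 1413 with median scaling, 1441 with quantile normalization, and 457 to 873 when a library was left out. The higher calls were 1475 and 1431 under those scalings and 1317 to 1757 when a library was left out. With the 5 FPKM filter, 3 other heavy chain genes and 5 interferon gamma induced genes rose. Peptide loading had 0 with median scaling, quantile normalization or the highest transcript, and 0 to 1 when a library was left out. Interferon gamma signalling had 2 with median scaling, 3 with the highest transcript and 2 to 5 when a library was left out; the induced genes had 5 with quantile normalization and 4 to 7 when a library was left out. Atf1 made the count of Nlrc5 partners 0 to 1. Fcgrt made the count of falls 0 with the highest transcript and 0 to 1 when a library was left out. The ratios of H2-D1, Tap1 and H2-Q4 reversed with B2m as the reference (-0.18, -0.11 and -0.10).

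Replicate numbers are shared by the groups, and the deviations of same-numbered libraries correlated at -0.004, 0.017 and 0.039 over genes. Bleomycin libraries 2 and 3 correlated best with the same-numbered PBS library, and bleomycin library 1 with PBS library 2 (0.021). Values this near 0, from 3 libraries per group, cannot decide whether the numbers pair the libraries. With the replicate block, 7 class I genes rose (Tap1 and Tap2 lost their calls, at adjusted p = 0.0629 and 0.0524), and 1359 genes were higher and 563 lower. With the block the counts of rises were 0 for peptide loading, 3 for interferon gamma signalling and 4 for the induced genes, and 0 other heavy chains fell.

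Depth is unknown, so no floor or counting interval can be given, and values near 0 (Nlrc5, Cd8a and Ptprc with PBS) are the least certain. The reads shared among the Q genes and the transcript split within H2-K1 and Tap1 limit those values.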
